A study of Mus musculus with 9 samples.

Results

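The genes described here are the glutathione, peroxidase and antioxidant genes of the mouse eye. They were chosen by gene symbol alone: every glutathione S-transferase, glutathione peroxidase, peroxiredoxin, superoxide dismutase, thioredoxin and thioredoxin reductase symbol in the deposited tables, together with catalase (Cat), Gclc, Gclm, Gss, Gsr, Hmox1, Hmox2, Nqo1, Nfe2l2, Keap1, Nnt and the metallothioneins Mt1, Mt2 and Mt3. The rule found 51 of the 13089 genes listed. It uses no measured value, but it was set with earlier results of these data known. By family these were 19 glutathione S-transferases, 6 peroxiredoxins, 5 thioredoxins and thioredoxin reductases, 4 glutathione peroxidases, 4 enzymes of glutathione synthesis and recycling, 3 superoxide dismutases, 3 metallothioneins, the group of 3 formed by Hmox1, Hmox2 and Nqo1, the regulatory pair Nfe2l2 and Keap1, and Cat and Nnt on their own.

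RNA sequencing of poly(A) RNA was done on whole eyes of wild-type female mice of 4 weeks from the inbred strains C57BL/6J, A/J and BALB/c, which per the series' design differ in the rate at which the retina degenerates. The coat and eyes are pigmented in C57BL/6J, and the other 2 strains are albino. Each strain had 3 libraries, each prepared from RNA pooled over 5 mice, so no value belongs to a single animal. The labels name no treatment. Nothing in the labels tells whether a strain's 3 libraries were made from separate pools of mice, so the p-values measure only how much libraries differed, which may be technical. In RNA from a whole organ, fewer cells of a type and less RNA per cell cannot be told apart.

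Glutathione is a small thiol that cells make from amino acids in a pair of ATP-dependent steps and keep reduced with NADPH. Glutathione peroxidases use it to remove peroxides, glutathione S-transferases attach it to reactive compounds, and the thioredoxin and peroxiredoxin system forms a parallel route for peroxide removal. Many of these genes are known targets of the transcription factor Nrf2 (encoded by Nfe2l2), which Keap1 holds in check, and in the eye the lens, the cornea and the photoreceptors are known for their need of this defence against light and oxygen.

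All values are RPKM, reads scaled by transcript length and by the mapped reads of the library, as deposited, and means are given ± SD over n = 3 libraries. A log2 change is the difference between strain means of log2(scaled RPKM + 0.5) from limma, with its standard error (SE), and it understates the change of low genes. A gene was called when its Benjamini-Hochberg adjusted p, taken over all 12920 genes tested, was under 0.05. All 51 genes passed the filter on low values, Gstp2 only through its BALB/c libraries, and none was listed at 0 in any library. Their depth in reads is unknown. The mean level lay above 100 RPKM for 9 of them, between 10 and 100 RPKM for 31 and below 10 RPKM for 11.

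The libraries were not equally alike. On the log2 scale the typical gene had a median SD among libraries of 0.26 for A/J, 0.1 for BALB/c and 0.25 for C57BL/6J. The Spearman correlation across genes between a library's deviation and the GC content of the transcript ranged from -0.73 to 0.57 over the 9 libraries, and within A/J it was -0.66 and -0.73 in libraries 1 and 2 against 0.46 in library 3. In C57BL/6J 3 the length-weighted sum of RPKM was 114.5% of the total that defines RPKM, against 96.8% to 99.6% in the other 8 libraries. Markers of the lens and the pigment epithelium were present in every library, with the lens crystallin Cryaa between 18391 and 53089 RPKM and the pigment epithelium gene Rpe65 between 56.1 and 249.9 RPKM.

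Strain differences were seen in 7 of the 51 genes, and they had different patterns. The plasma-type peroxidase Gpx3 and the omega-class transferase Gsto1 were highest in C57BL/6J. The transferases Gstp1, Gstp2 and Gstm2 and the metallothionein Mt2 were highest in BALB/c. The mitochondrial transhydrogenase Nnt was lowest in C57BL/6J. The other 44 genes, among them all peroxiredoxins, thioredoxins, superoxide dismutases and heme oxygenases, were called in none of the 3 pairwise comparisons.

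Between A/J and C57BL/6J, 3 of 51 genes (5.88%) were called, 1 higher and 2 lower in A/J, where 2.69% of all genes tested were called, 1.08% higher and 1.62% lower. Between BALB/c and C57BL/6J, 7 (13.7%) were called, 5 higher and 2 lower in BALB/c, against 3.09% of all genes, 1.93% higher and 1.15% lower. Between A/J and BALB/c, 5 (9.8%) were called, all lower in A/J, against 2.48% of all genes, of which 0.573% were higher and 1.90% lower. An F test across the 3 strains called 7 (13.7%) against 4.47% of all genes. The comparisons share libraries with each other and are not independent. The median log2 change of the 51 genes was 0.13 for A/J minus C57BL/6J, 0.22 for BALB/c minus C57BL/6J and -0.15 for A/J minus BALB/c, beside -0.01 over all genes in each. The median absolute change was 0.20, 0.26 and 0.30, beside 0.27, 0.17 and 0.28 over all genes.

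These counts depended on single libraries. In A/J minus C57BL/6J the count was 9 without A/J 3, where the count over all genes was 3630, against 348 with all libraries. In BALB/c minus C57BL/6J the count of the 51 genes was 4 without A/J 1 or BALB/c 1, 3 without C57BL/6J 1, and 2 without BALB/c 2 or BALB/c 3. The counts over all genes there were 279, 195, 232, 157 and 149 in that order, against 399. In A/J minus BALB/c leaving out A/J 3 gave 11 of the 51 genes, BALB/c 2 gave 3 and BALB/c 3 gave 2. The range of the count over all genes in that comparison is given at the end. Leaving out A/J 3 and C57BL/6J 3 together gave 15, 16 and 24 called genes in the 3 comparisons, and the counts over all genes then went from 348, 399 and 320 to 5043, 1877 and 7700, which are 39.4%, 14.7% and 60.2% of the 12790 genes tested in that setting. In at least 1 pairwise comparison 31 of the 51 genes were then called, 24 of them called in none with all libraries, against 67.2% of all genes, so such a call by itself sets no gene apart.

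**Figure D1:**
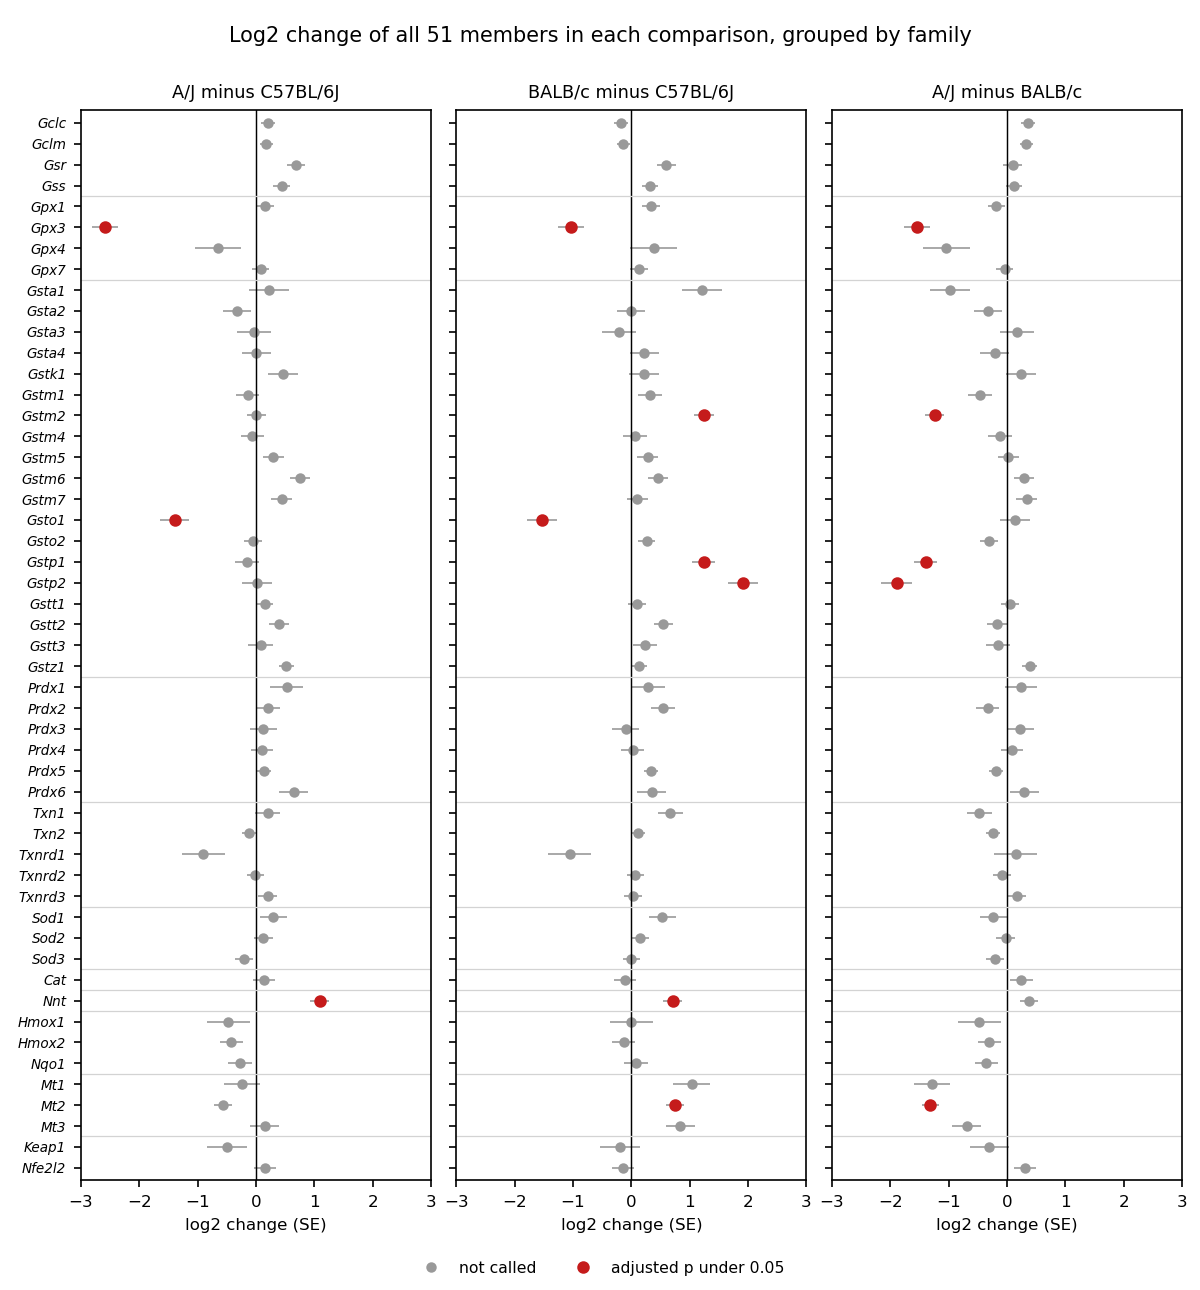
Log2 change (horizontal axis) with its SE of each of the 51 genes (vertical axis, grouped by family) in the 3 pairwise comparisons. Red points mark the genes called at an adjusted p under 0.05, which are 3, 7 and 5 from left to right, and grey points the others.

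Glutathione is made by glutamate-cysteine ligase, whose catalytic subunit is Gclc and whose modifier subunit is Gclm, and by glutathione synthetase (Gss), and glutathione reductase (Gsr) returns its oxidised form to the reduced one. None of the 4 was called by limma, although all 4 had an unadjusted p under 0.05 in at least 1 comparison, as did 26 of the 51 genes and 34.7% of all genes tested. The most abundant was Gss, at 58.36, 49.93 and 50.88 RPKM across the A/J libraries, 45.47, 45.54 and 48.39 in those of BALB/c and 44.67, 43.35 and 38.39 in those of C57BL/6J. In deposited RPKM its strains followed each other without overlap. After scaling, A/J minus C57BL/6J was 0.44 (SE 0.14, adjusted p = 0.18) and A/J minus BALB/c was 0.12 (SE 0.14, adjusted p = 0.61). Gsr had the same order in deposited RPKM, with 15.71, 17.53 and 14.75 RPKM across the A/J libraries, 14.31, 14.37 and 13.95 in those of BALB/c and 12.26, 10.45 and 8.87 in those of C57BL/6J. Its log2 change was 0.69 (SE 0.16, adjusted p = 0.068) for A/J minus C57BL/6J and 0.60 (SE 0.16, adjusted p = 0.11) for BALB/c minus C57BL/6J. With a correction for GC content both of these passed, at adjusted p = 0.038 and 0.049. For Gsr, A/J minus BALB/c was 0.10 (SE 0.16, adjusted p = 0.73).

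The ligase subunits had another order. Gclc was at 27.04, 25.54 and 24.30 RPKM across the A/J libraries, 18.91, 17.88 and 19.86 in those of BALB/c and 22.78, 24.23 and 25.23 in those of C57BL/6J. Gclm was at 24.23, 24.03 and 23.11 RPKM across the A/J libraries, 18.17, 17.54 and 18.23 in those of BALB/c and 23.80, 20.64 and 23.26 in those of C57BL/6J. For both subunits the BALB/c libraries lay below all others. A/J minus BALB/c was 0.36 (SE 0.12, adjusted p = 0.16) for Gclc and 0.33 (SE 0.11, adjusted p = 0.17) for Gclm. With a correction for GC content it fell to 0.22 (adjusted p = 0.28 by limma) for Gclc. For Gclm the difference was then gone, at -0.03 (adjusted p = 0.93).

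Counting such separations on the deposited RPKM, all 3 BALB/c libraries lay below both other strains for 5 of the 51 genes (Cat, Gclc, Gclm, Nfe2l2 and Txnrd1), a pattern held by 12.9% of all genes. They lay above both for 6 (Gstm2, Gstp1, Gstp2, Mt2, Prdx2 and Txn1), against 3.05% of all genes. A/J lay above both others for 4 (Gsr, Gss, Gstz1 and Nnt), against 3.57%, and below both for 2 (Gpx3 and Mt2), against 3.96%. C57BL/6J lay above both others for 4 (Gpx3, Gsto1, Sod3 and Txnrd1), against 6.76%, and below both for 3 (Gsr, Gss and Nnt), against 1.70%. Pair by pair, the libraries did not overlap for 11 genes between A/J and C57BL/6J (16.3% of all genes), 18 between BALB/c and C57BL/6J (33.4%) and 26 between A/J and BALB/c (33.1%).

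Nnt, nicotinamide nucleotide transhydrogenase, uses the mitochondrial proton gradient to make the NADPH that reduces glutathione and thioredoxin in mitochondria, and the C57BL/6J strain is known to carry a deletion within this gene. Nnt was at 9.53, 10.21 and 8.05 RPKM across the A/J libraries, 6.72, 6.56 and 6.69 in those of BALB/c and 5.12, 4.2 and 3.96 in those of C57BL/6J. The 3 strains did not overlap and C57BL/6J was lowest, with means of 9.26 ± 1.10, 6.66 ± 0.085 and 4.43 ± 0.612 RPKM. Transcript was thus still counted in every C57BL/6J library, and gene-level values do not show which exons the reads came from. Nnt was higher in A/J than in C57BL/6J (1.09 on the log2 scale, SE 0.16, adjusted p = 0.0058). That call was kept in all 9 omissions of 1 library and was lost in a fit of only those 2 strains (adjusted p = 0.063) and with A/J 3 as the only A/J library (0.17). BALB/c was also higher than C57BL/6J (0.71, SE 0.16, adjusted p = 0.046), a call lost in 8 of 9 omissions, every one except that of A/J 3, with adjusted p up to 0.20. It was also lost with the values as deposited (0.088), quantile normalization (0.057) and a fit of only those 2 strains (0.051). A/J minus BALB/c was 0.38 and was not called (adjusted p = 0.22).

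Among the glutathione peroxidases, Gpx3 had the largest strain difference of the 51 genes. Gpx3 is the secreted, selenium-containing peroxidase found in plasma and extracellular fluids. Its level was 31.77, 29.06 and 27.97 RPKM across the A/J libraries, 79.21, 84.82 and 84.67 in those of BALB/c and 199.51, 125.78 and 291.37 in those of C57BL/6J. The strains formed 3 separate steps, with a narrow spread in A/J (29.6 ± 1.96) and BALB/c (82.9 ± 3.20) and a wide one in C57BL/6J (206 ± 83.0). Gpx3 was lower in A/J than in C57BL/6J (-2.58 on the log2 scale, SE 0.22, adjusted p = 0.00034), which held under all 21 settings. A/J was also lower than BALB/c (-1.54, SE 0.22, adjusted p = 0.008), a call lost on leaving out BALB/c 2 or BALB/c 3 (up to 0.057) and with A/J 3 as the only A/J library (0.16). BALB/c was lower than C57BL/6J (-1.04, SE 0.22, adjusted p = 0.043), but that call was lost in 7 of 9 omissions, those other than A/J 3 and C57BL/6J 2, with adjusted p up to 0.18, at 0.085 in a fit of those 2 strains and at 0.086 with A/J 3 as the only A/J library. Only 0.5519% of the 31-base words of the Gpx3 transcripts occur in another annotated gene.

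Marker sums of 3 tissues are given beside Gpx3, whose pattern they shared only in part. The summed RPKM of the 5 trabecular meshwork markers, all of them listed, was 273 to 311 for A/J, 352 to 400 for BALB/c and 388 to 523 for C57BL/6J. The sum over 12 of 13 ciliary body and iris markers was 1029 to 1581 for A/J, 1963 to 2176 for BALB/c and 1511 to 2900 for C57BL/6J, and over 11 of 13 vascular markers it was 86.0 to 97.9, 114 to 115 and 131 to 141. No listed marker of the 3 tissues was at 0 in any library. The most abundant markers, which weigh most in these sums, were Mgp, Ptgds and Rgs5 in turn. Of the trabecular meshwork markers, 1 was called higher and 1 lower in BALB/c minus C57BL/6J (1.93% and 1.15% of all genes). In A/J minus C57BL/6J 2 were called lower (1.62%), and in A/J minus BALB/c 1 was (1.90%). Within C57BL/6J, where Gpx3 was highest in library 3, the trabecular meshwork sum was 523, 462 and 388 in libraries 1, 2 and 3. The ciliary body and iris sum was 2900, 1971 and 1511 in these libraries, and the vascular sum 131, 134 and 141. The part of these tissues in the Gpx3 result was not tested.

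Gpx1, the cytosolic and mitochondrial peroxidase and the most abundant of the family in A/J and BALB/c, differed little, with 168 ± 3.33 RPKM for A/J, 182 ± 8.47 for BALB/c and 163 ± 21.7 for C57BL/6J. Its BALB/c minus C57BL/6J change was 0.34 (95% interval 0.00 to 0.68, adjusted p = 0.36). Gpx7, an enzyme of the endoplasmic reticulum, was at 6.35 ± 0.729, 6.23 ± 0.408 and 6.42 ± 0.663 RPKM, and its log2 changes were between -0.04 and 0.13. Gpx4, which reduces lipid peroxides in membranes, was at 55.19, 49.27 and 69.12 RPKM across the A/J libraries, 116.91, 104.31 and 117.33 in those of BALB/c and 61.16, 65.52 and 231.73 in those of C57BL/6J. A single library, C57BL/6J 3, stood 3.54-fold above the higher of its strain mates. With all libraries Gpx4 was not called (A/J minus BALB/c -1.04, SE 0.40, adjusted p = 0.20), whereas a fit of only A/J and BALB/c called it (-1.03, adjusted p = 0.011). Without A/J 3 and C57BL/6J 3 it was called as higher in BALB/c than in A/J (A/J minus BALB/c -1.15, adjusted p = 4.7e-05) and than in C57BL/6J (0.94, adjusted p = 0.00021), where 60.2% and 14.7% of all genes were called. Of its 31-base words, 38.94% also occur in another annotated gene, mainly the pseudogene Gpx4-ps2, so its level is uncertain.

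**Figure D2:**
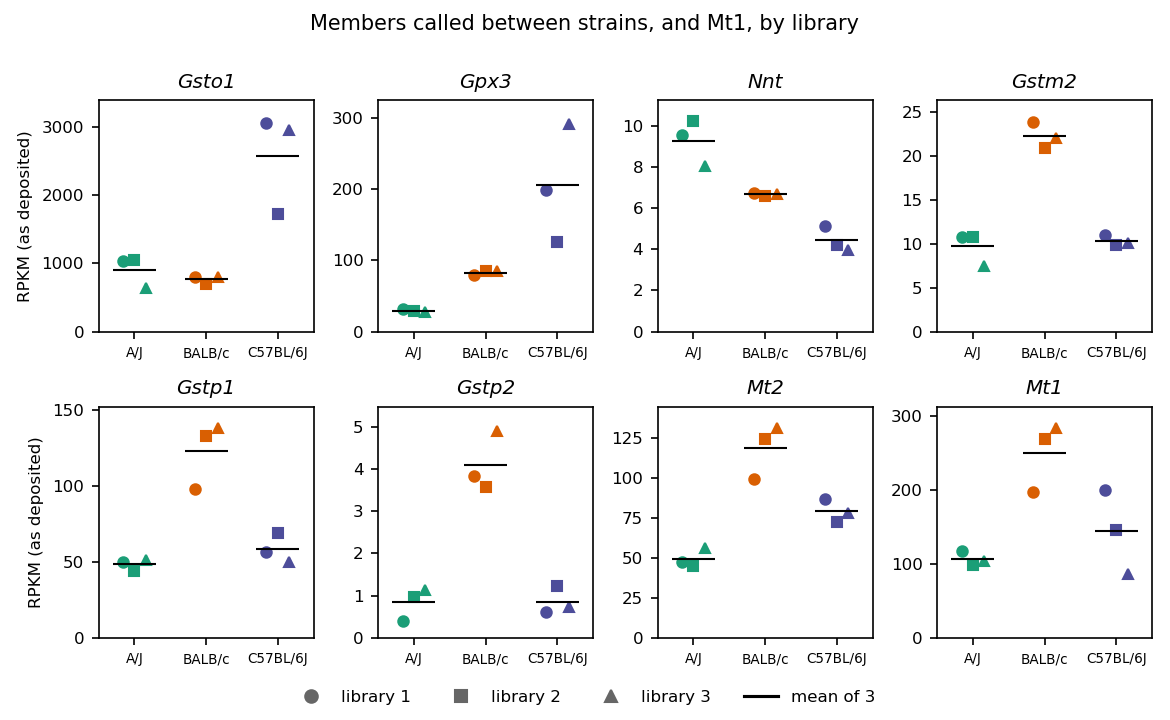
Deposited RPKM (vertical axes, linear and starting at 0) of the 7 called genes and Mt1 in each library, with the mean of 3 libraries per strain as a bar. C57BL/6J is highest for Gsto1 and Gpx3, BALB/c for Gstm2, Gstp1, Gstp2 and Mt2, and the strains descend from A/J to C57BL/6J for Nnt.

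The 19 glutathione S-transferases spanned a wide range of levels. Gsto1, an omega-class enzyme with thioltransferase and dehydroascorbate reductase activity, and Gsta4, an alpha-class enzyme known for conjugating the lipid peroxidation product 4-hydroxynonenal, were the most abundant. Gsto1 was at 1029.49, 1053.73 and 634.70 RPKM across the A/J libraries, 801.95, 692.44 and 807.46 in those of BALB/c and 3055.04, 1720.73 and 2955.63 in those of C57BL/6J. All 3 C57BL/6J libraries lay above every library of the albino strains, with means of 906 ± 235, 767 ± 64.9 and 2577 ± 743 RPKM. Gsto1 was lower in A/J than in C57BL/6J (-1.39 on the log2 scale, SE 0.25, adjusted p = 0.022) and lower in BALB/c than in C57BL/6J (-1.53, SE 0.25, adjusted p = 0.012). With quantile normalization the changes were larger, at -1.92 and -2.30 (adjusted p = 0.0071 and 0.0024). A/J and BALB/c did not differ beyond their spread (0.14, 95% interval -0.44 to 0.71). The A/J call was lost without any of A/J 1, C57BL/6J 1, C57BL/6J 3, BALB/c 1 and BALB/c 3 (up to 0.081) and in a fit of those 2 strains (0.12). The BALB/c call was lost without BALB/c 1, BALB/c 2, BALB/c 3 or C57BL/6J 1 (up to 0.078).

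Gsto1 alone made up 37.8% to 48.9% of the summed RPKM of the 51 genes in C57BL/6J, 20.7% to 25.5% in A/J and 17.4% to 19.7% in BALB/c. Without Gsto1 that sum was 2427 to 3085 RPKM for A/J, 3273 to 3463 for BALB/c and 2831 to 3507 for C57BL/6J, and the C57BL/6J range then overlapped both others. Its neighbour on the chromosome, Gsto2, was low in every library (1.02 ± 0.214, 1.32 ± 0.175 and 1.16 ± 0.145 RPKM) and was not called. No 31-base word of Gsto1 occurs in another annotated gene. The microglia and macrophage markers, 16 of 17 of them listed and none at 0, summed to 134 to 154 RPKM for A/J, 122 to 145 for BALB/c and 178 to 213 for C57BL/6J, highest in C57BL/6J without overlap, as was Gsto1. The same held for 4 further marker sums, none with a listed gene at 0. For A/J, BALB/c and C57BL/6J in turn, 15 of 16 inner retina neuron markers summed to 527 to 570, 562 to 570 and 687 to 701 RPKM, and all 11 of Mueller glia and astrocytes to 2112 to 2225, 1970 to 2124 and 2410 to 2509 RPKM. All 10 cone markers summed to 456 to 527, 457 to 543 and 577 to 694 RPKM, and the vascular sums are given above with Gpx3. These sums are of deposited RPKM, and all of them differed less between strains than Gsto1 did. The inner retina sum joins markers called both ways in A/J minus C57BL/6J, 1 higher and 3 lower (1.08% and 1.62% of all genes). The size factors by which the fit divided the libraries were 1.158 for C57BL/6J 3 and 0.931 to 0.946 for BALB/c. The sums were not compared after that scaling, so their separation may not hold there. The part of these cell types in the Gsto1 result was not tested. Gsta4 was at 546 ± 159 RPKM for A/J, 585 ± 14.9 for BALB/c and 579 ± 140 for C57BL/6J, with A/J minus C57BL/6J at 0.01 (95% interval -0.57 to 0.58).

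**Figure D3:**
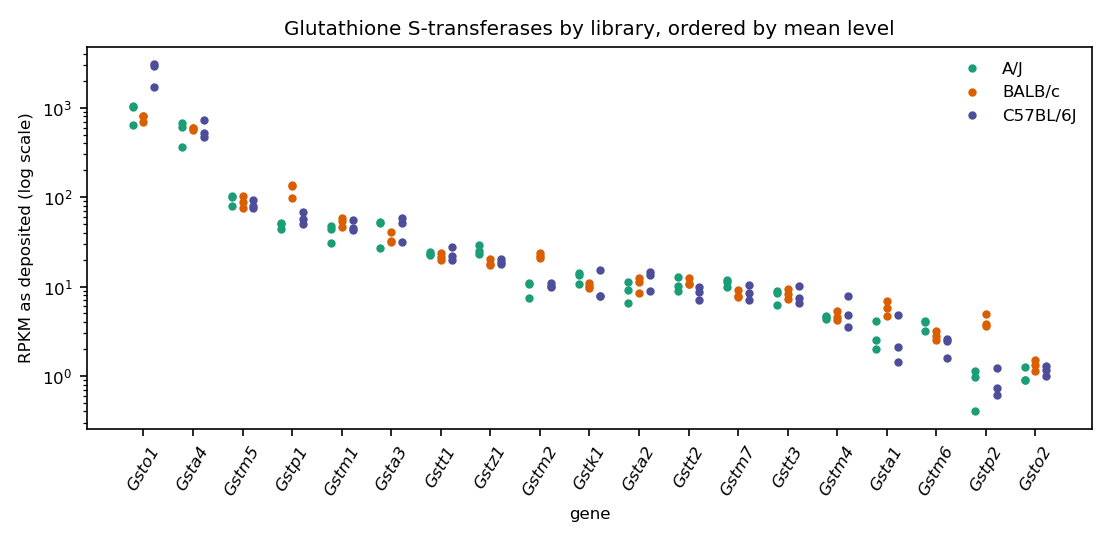
RPKM on a log scale (vertical axis) of the 19 glutathione S-transferases in each library, ordered by mean level, with 3 points per strain. Gsto1 separates C57BL/6J upward, and Gstp1, Gstm2 and Gstp2 separate BALB/c upward, while the points of most other transferases are mixed.

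The pi-class genes Gstp1 and Gstp2 lie next to each other in the RefSeq annotation and encode closely related enzymes that conjugate electrophiles. Gstp1 was at 49.85, 44.19 and 51.45 RPKM across the A/J libraries, 97.77, 133.09 and 138.04 in those of BALB/c and 56.47, 68.95 and 50.18 in those of C57BL/6J. The BALB/c libraries were all higher than the others (123 ± 22 against 48.5 ± 3.81 and 58.5 ± 9.55), while A/J and C57BL/6J overlapped. Gstp1 was higher in BALB/c than in C57BL/6J (1.24, SE 0.20, adjusted p = 0.010) and lower in A/J than BALB/c (-1.39, SE 0.20, adjusted p = 0.0075). Both calls were lost on leaving out BALB/c 2 or BALB/c 3 (up to 0.075 and 0.06), and that against A/J also with A/J 3 as the only A/J library (0.19).

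Gstp2 repeated this pattern at a level far below that of Gstp1. It was at 0.40, 0.98 and 1.14 RPKM across the A/J libraries, 3.83, 3.58 and 4.91 in those of BALB/c and 0.61, 1.23 and 0.73 in those of C57BL/6J, again with BALB/c above all others and the other 2 strains overlapping. Outside BALB/c only A/J 3 and C57BL/6J 2 reached 1 RPKM. Gstp2 thus passed the filter of 1 RPKM in at least 3 libraries only through the strain where it was high. The settings tried include a fit without that filter. Gstp2 was higher in BALB/c than in C57BL/6J (1.91, SE 0.26, adjusted p = 0.0047), which held under all 21 settings, and lower in A/J than BALB/c (-1.89, SE 0.26, adjusted p = 0.0068), which was lost without BALB/c 3 (0.054) and with A/J 3 as the only A/J library (0.12). The values of the 2 genes cannot be fully separated: their transcripts were 90.6% identical when aligned, 60.33% of the 31-base words of Gstp2 and 38.54% of those of Gstp1 occur in another annotated gene, and how the authors assigned shared reads is not given in the sources used here. Gstp2 amounted to 0.802% to 2.22% of Gstp1 for A/J, 2.69% to 3.92% for BALB/c and 1.08% to 1.78% for C57BL/6J, and the BALB/c shares lay above all others.

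Although the values of the 2 pi-class genes cannot be fully separated, both were highest in BALB/c, and the sequences before their starts are shown. They are the 250 bases upstream of the RefSeq start in build GRCm38.p6, both on the minus strand, at chr19:4037913-4038162 for Gstp1 and chr19:4042222-4042471 for Gstp2, written 5′ to 3′ toward the gene. Capitals mark matches, on either strand, to the core of the antioxidant response element bound by Nrf2, searched as TGACNNNGC or TGAGNNNGC.
Gstp1: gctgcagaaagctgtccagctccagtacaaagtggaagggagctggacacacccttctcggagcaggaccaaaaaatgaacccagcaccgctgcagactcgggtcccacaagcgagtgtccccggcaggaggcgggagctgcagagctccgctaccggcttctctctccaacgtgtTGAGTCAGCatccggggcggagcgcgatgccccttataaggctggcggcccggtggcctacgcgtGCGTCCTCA
Gstp2: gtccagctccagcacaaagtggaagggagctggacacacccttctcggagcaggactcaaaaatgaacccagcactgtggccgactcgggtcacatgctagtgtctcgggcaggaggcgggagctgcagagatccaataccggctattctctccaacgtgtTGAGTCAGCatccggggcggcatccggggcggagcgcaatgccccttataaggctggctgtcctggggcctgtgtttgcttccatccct
The same element on the plus strand of the gene began 74 bases before the start in Gstp1 and 89 bases before it in Gstp2, and Gstp1 had a further match on the other strand 9 bases before its start. Aligned, the 2 windows were identical at 208 of 265 columns (78.5%). A match of this kind occurred in 23% of 32851 RefSeq mouse promoter windows of the same length and in 17 of the 58 windows found for 43 of the 51 genes (29.3%). It is a match of letters in a reference sequence of another build than that of the files. It does not show binding, and sequence differences between the strains were not analysed here.

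Gstm2, a mu-class transferase, was the third transferase highest in BALB/c. It was at 10.79, 10.81 and 7.48 RPKM across the A/J libraries, 23.84, 20.94 and 21.98 in those of BALB/c and 10.94, 9.83 and 10.09 in those of C57BL/6J. BALB/c stood clear of the other strains, which overlapped each other. Gstm2 was higher in BALB/c than in C57BL/6J (1.25, SE 0.17, adjusted p = 0.0042) and lower in A/J than BALB/c (-1.24, SE 0.17, adjusted p = 0.0057), and both calls held under all 21 settings. A/J minus C57BL/6J was 0.01 (95% interval -0.37 to 0.39). The other mu-class genes listed, which lie in the same cluster, were not called, and BALB/c minus C57BL/6J was 0.32 for Gstm1, 0.06 for Gstm4, 0.28 for Gstm5, 0.46 for Gstm6 and 0.10 for Gstm7. The lens markers, 19 of 21 listed and none at 0, summed to 178552 to 189908 RPKM in BALB/c, 145908 to 159755 in A/J and 113958 to 151832 in C57BL/6J. This sum was highest in BALB/c, but so was the RPKM sum of all genes. That total was 589947 to 599635 in BALB/c and 511888 to 539555 in the other strains, so the lens sum is not a share. The part of the lens in the 4 genes highest in BALB/c was not tested.

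The remaining 15 transferases were not called. Their log2 changes lay between -0.33 (Gsta2) and 0.76 (Gstm6) for A/J minus C57BL/6J, between -0.21 (Gsta3) and 1.21 (Gsta1) for BALB/c minus C57BL/6J, and between -0.98 (Gsta1) and 0.39 (Gstz1) for A/J minus BALB/c. Gstz1, the maleylacetoacetate isomerase of tyrosine breakdown, was at 25.15, 28.97 and 22.94 RPKM across the A/J libraries, 20.06, 18.00 and 17.38 in those of BALB/c and 18.88, 17.86 and 20.49 in those of C57BL/6J, with A/J above both others. Its A/J minus C57BL/6J change was 0.52 (SE 0.13, adjusted p = 0.081), and that of Gstm6 was 0.76 (SE 0.17, adjusted p = 0.057). Both passed with a correction for GC content, each at adjusted p = 0.035. The value of Gsta1 is uncertain, since 92.86% of its 31-base words occur in another annotated gene.

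None of the 6 peroxiredoxins, abundant thiol peroxidases most of which thioredoxin reduces, was called by limma. An unadjusted p under 0.05 in at least 1 comparison was seen for 3 of them, beside 34.7% of all genes. Prdx5, found in mitochondria, peroxisomes and cytosol, was the most abundant, at 261 ± 11.5 RPKM for A/J, 285 ± 15.8 for BALB/c and 256 ± 21.1 for C57BL/6J. Prdx2, a cytosolic form, was at 171.25, 174.21 and 135.26 RPKM across the A/J libraries, 182.11, 187.99 and 203.79 in those of BALB/c and 181.47, 150.85 and 120.50 in those of C57BL/6J. The BALB/c libraries were the highest, although by less than 1 RPKM over C57BL/6J 1, and BALB/c minus C57BL/6J was 0.54 (SE 0.20, adjusted p = 0.26). Prdx1 was at 217.41 and 225.77 RPKM in libraries 1 and 2 of A/J but at 112.59 in A/J 3, so the A/J libraries spanned all the others, which lay between 122.07 and 171.46. Prdx6, which also has phospholipase activity, was at 110 ± 15.7, 84.7 ± 7.56 and 77.1 ± 22.2 RPKM, with A/J minus C57BL/6J at 0.65 (SE 0.25, adjusted p = 0.24). The strain means of Prdx3 and Prdx4, the mitochondrial and endoplasmic reticulum forms, lay between 38.0 and 47.9 RPKM and between 21.2 and 23.9 RPKM.

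In the thioredoxin system, Txn1 is the cytosolic and Txn2 the mitochondrial thioredoxin, and the 3 reductases return them to the reduced state with NADPH. None of the 5 was called, and 2, Txn1 and Txnrd1, had an unadjusted p under 0.05 in at least 1 comparison (34.7% of all genes). Txn1 was at 61.72, 63.49 and 43.73 RPKM across the A/J libraries, 80.00, 65.09 and 76.08 in those of BALB/c and 57.56, 58.25 and 41.80 in those of C57BL/6J. BALB/c lay above the rest, with BALB/c minus C57BL/6J at 0.67 (SE 0.22, adjusted p = 0.19). Txn2 was the most abundant of the group, at 80.9 ± 6.64, 90.2 ± 2.25 and 95.2 ± 8.73 RPKM, and its log2 changes were between -0.23 and 0.11. Txnrd1, the cytosolic reductase, was at 14.91, 14.27 and 14.22 RPKM across the A/J libraries, 12.96, 11.79 and 12.32 in those of BALB/c and 20.85, 18.19 and 68.33 in those of C57BL/6J. The strains did not overlap, but C57BL/6J 3 lay 3.28-fold above the higher of the other C57BL/6J libraries. Txnrd1 was not called with all libraries (A/J minus C57BL/6J -0.90, adjusted p = 0.27, and BALB/c minus C57BL/6J -1.06, adjusted p = 0.22). Without A/J 3 and C57BL/6J 3 it was called as lower in both albino strains, by the smaller changes -0.34 (adjusted p = 0.027) and -0.52 (adjusted p = 0.0053), where 39.4% and 14.7% of all genes were called. Txnrd2 and Txnrd3 had strain means between 6.57 and 7.10 and between 3.59 and 4.30 RPKM.

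The superoxide dismutases, which turn superoxide into hydrogen peroxide, and catalase, which breaks hydrogen peroxide down, were not called, and Sod1 alone had an unadjusted p under 0.05 (BALB/c minus C57BL/6J, 0.53, adjusted p = 0.36 by limma). Sod1, the copper-zinc enzyme of the cytosol, was at 179.33, 206.46 and 128.24 RPKM across the A/J libraries, 190.00, 184.45 and 191.20 in those of BALB/c and 196.27, 128.73 and 127.12 in those of C57BL/6J. Its A/J and C57BL/6J libraries overlapped, and A/J minus C57BL/6J was 0.30 (95% interval -0.23 to 0.83). Sod2, the mitochondrial manganese enzyme, was nearly level at 27.8 ± 1.67, 26.9 ± 1.03 and 27.5 ± 4.02 RPKM, with A/J minus C57BL/6J at 0.13 (95% interval -0.24 to 0.50). Sod3, the extracellular enzyme, was at 20.93, 18.22 and 22.41 RPKM across the A/J libraries, 19.86, 23.80 and 23.87 in those of BALB/c and 27.79, 24.75 and 23.97 in those of C57BL/6J. C57BL/6J was highest by a small margin in deposited RPKM, and after scaling BALB/c minus C57BL/6J was -0.00 (95% interval -0.33 to 0.33). Cat, the peroxisomal catalase, was at 39.4 ± 6.32, 31.2 ± 0.85 and 38.5 ± 6.61 RPKM in the same order of strains, and its lowest A/J library (32.08) was just above its highest BALB/c library (31.94). These Cat levels are deposited RPKM, and after scaling A/J minus BALB/c was 0.25 for Cat (SE 0.19, adjusted p = 0.42).

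Hmox1, the inducible heme oxygenase, and the quinone reductase Nqo1 are common readouts of oxidative stress and Nrf2 activity, and Hmox2 is the constitutive heme oxygenase. None was called by limma or had an unadjusted p under 0.05 in any pairwise comparison, which held also for Nfe2l2 and Keap1. Without A/J 3 and C57BL/6J 3, 3 of these 5 genes were called by limma. Hmox1 was then lower in A/J than in C57BL/6J (-0.83, adjusted p = 0.016, 39.4% of all genes being called), and between A/J and BALB/c (60.2%) Nfe2l2 was higher in A/J (0.46, adjusted p = 0.0048) and Keap1 lower (-0.51, adjusted p = 0.0083). Hmox1 was at 86.65, 67.21 and 65.09 RPKM across the A/J libraries, 90.29, 101.32 and 95.73 in those of BALB/c and 109.16, 186.28 and 62.76 in those of C57BL/6J. The C57BL/6J libraries held both the highest and the lowest value of all 9, and with all libraries BALB/c minus C57BL/6J was -0.00 (95% interval -0.84 to 0.83). Nqo1 was at 14.3 ± 3.21, 17.2 ± 1.07 and 18.6 ± 3.12 RPKM, with A/J minus C57BL/6J at -0.27 (95% interval -0.72 to 0.18). Nfe2l2, which encodes Nrf2, was at 22.09, 23.08 and 17.04 RPKM across the A/J libraries, 16.25, 15.32 and 15.76 in those of BALB/c and 24.87, 18.88 and 16.78 in those of C57BL/6J. BALB/c was lowest without overlap in deposited RPKM only, by a small margin below C57BL/6J 3. After scaling, A/J minus BALB/c was 0.31 (SE 0.19, adjusted p = 0.35). Keap1 was between 12.14 and 20.36 RPKM in 8 libraries and at 44.02 in C57BL/6J 3, and Hmox2 was between 21.01 and 33.51 RPKM in 8 libraries and at 53.85 in C57BL/6J 3. In C57BL/6J 3 the level relative to the higher of the other C57BL/6J libraries was 2.46 for Keap1 and 1.61 for Hmox2 but 0.337 for Hmox1 and 0.433 for Mt1.

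**Figure D4:**
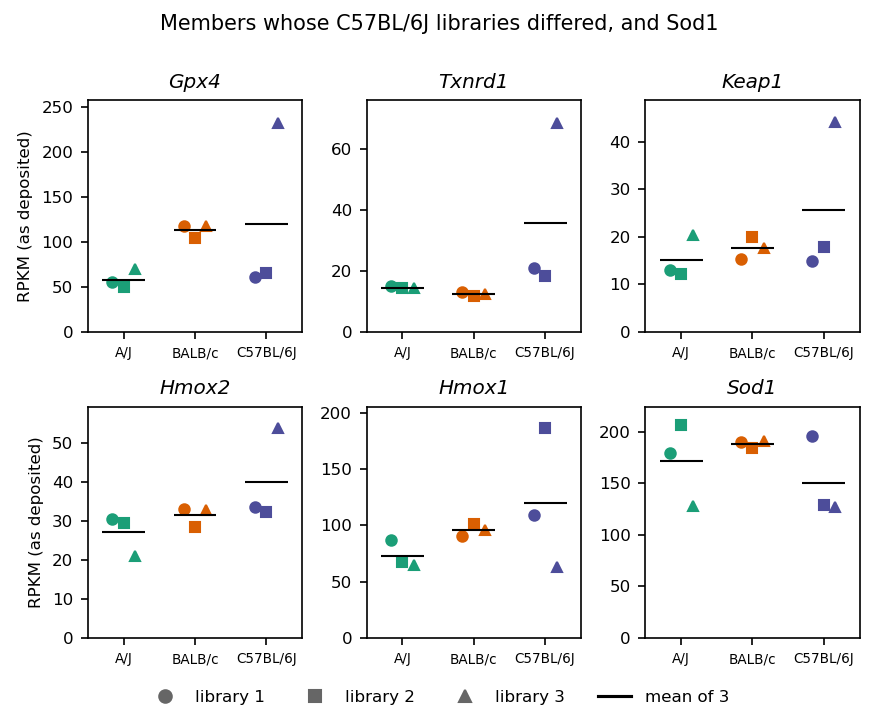
Deposited RPKM (vertical axes, linear and starting at 0) of 5 genes whose C57BL/6J libraries differed widely, and of Sod1, in each library, with the mean of 3 as a bar. C57BL/6J 3 (triangle) is far above the other C57BL/6J libraries for Gpx4, Txnrd1, Keap1 and Hmox2 and below them for Hmox1.

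The metallothioneins are small cysteine-rich proteins that bind zinc and copper and can react with oxidants. Mt1 and Mt2 are widely expressed and known to be induced by metals through the factor MTF-1, and Mt3 is best known from the nervous system. Mt2 was at 47.66, 45.12 and 56.14 RPKM across the A/J libraries, 99.86, 124.72 and 131.47 in those of BALB/c and 87.24, 72.39 and 78.38 in those of C57BL/6J. The strains did not overlap, with A/J lowest (49.6 ± 5.77) and BALB/c highest (119 ± 16.6), and C57BL/6J between them (79.3 ± 7.47). Mt2 was lower in A/J than BALB/c (-1.31 on the log2 scale, SE 0.15, adjusted p = 0.0025), which was kept in all 9 omissions of 1 library and lost with A/J 3 as the only A/J library (0.11). It was higher in BALB/c than in C57BL/6J (0.75, SE 0.15, adjusted p = 0.034), which was lost in 6 of 9 omissions, those other than A/J 2, A/J 3 and BALB/c 1 (up to 0.20), and with the values as deposited (0.089), quantile normalization (0.092), A/J 3 as the only A/J library (0.056) and a fit of only those 2 strains (0.058). A/J minus C57BL/6J was -0.56 (SE 0.15, adjusted p = 0.11). Of the 31-base words of Mt2, 58.12% also occur in another annotated gene, mainly Gm45774, so its level is uncertain.

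Mt1 was the most abundant metallothionein, at 116.97, 99.01 and 104.27 RPKM across the A/J libraries, 197.28, 268.86 and 282.68 in those of BALB/c and 200.20, 145.77 and 86.60 in those of C57BL/6J. BALB/c lay above A/J without overlap, but the C57BL/6J libraries reached from below all A/J libraries to above the lowest BALB/c library. A/J minus BALB/c was -1.28 (SE 0.31, adjusted p = 0.077), close to the change of Mt2 but with a larger error. In a fit of only those 2 strains, without the widely spread C57BL/6J libraries, it was called (-1.27, adjusted p = 0.0099). With a correction for GC content it was smaller and not called (-0.96, adjusted p = 0.24 by limma). It was not called with quantile normalization either (0.12). Mt3 was at 53.47, 45.62 and 41.33 RPKM across the A/J libraries, 59.36, 81.98 and 77.07 in those of BALB/c and 59.68, 46.01 and 33.94 in those of C57BL/6J, and A/J minus BALB/c was -0.69 (SE 0.25, adjusted p = 0.18). The GC correction brought this Mt3 change to -0.23 (adjusted p = 0.81). Without A/J 3 and C57BL/6J 3 all 3 metallothioneins were called in A/J minus BALB/c, as were 60.2% of all genes in that setting, at -1.24 for Mt1, -1.39 for Mt2 and -0.59 for Mt3 (adjusted p = 0.00029, 5.4e-05 and 0.0075). The ratio of Mt1 to Mt2 was 2.29, 2.01 and 1.10 in C57BL/6J 1, 2 and 3, against 1.98 to 2.16 for BALB/c and 1.86 to 2.45 for A/J.

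The 3 genes lie in the order Mt3, Mt2, Mt1 on the chromosome. The 250 bases upstream of the RefSeq starts of Mt1 (chr8:94178839-94179088) and Mt2 (chr8:94172368-94172617), both on the plus strand of GRCm38.p6, are shown because metal response elements are the known control sequences of these genes. Capitals mark matches to the core of that element on either strand, searched as TGCACNC or TGCGCNC.
Mt1: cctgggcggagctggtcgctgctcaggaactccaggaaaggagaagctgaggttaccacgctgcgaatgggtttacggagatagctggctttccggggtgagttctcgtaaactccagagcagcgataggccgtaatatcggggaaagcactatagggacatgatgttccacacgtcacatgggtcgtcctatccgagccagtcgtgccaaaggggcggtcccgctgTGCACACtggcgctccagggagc
Mt2: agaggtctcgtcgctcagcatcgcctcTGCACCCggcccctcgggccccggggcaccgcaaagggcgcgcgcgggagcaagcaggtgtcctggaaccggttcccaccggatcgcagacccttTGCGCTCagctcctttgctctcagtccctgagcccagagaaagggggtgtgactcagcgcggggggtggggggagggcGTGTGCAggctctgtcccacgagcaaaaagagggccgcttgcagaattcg
The Mt2 window had 3 matches, 223, 128 and 50 bases before the start, the last on the minus strand, and the Mt1 window had 1, 23 bases before the start. Mt2 also had a match to the antioxidant response element core at 79 bases. Aligned, the windows were identical at 48% of 304 columns, while those of Gstp1 and Gstp2 were at 78.5%. The metal element core was matched in 21.4% of all RefSeq promoter windows and in 16 of the 58 windows of the genes described here (27.6%). Where RefSeq places the start decides what the window holds, and a window without a match, such as those of Gpx3, Gsto1 and Gstm2 for both motifs, says only that these letters are not in it.

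Genes around these pathways that the symbol rule did not take in were examined as lists, read against the shares of all genes called in each comparison given above. Among 29 tested genes of glutathione cycling and conjugate handling, 1 was called higher and 1 lower in A/J minus C57BL/6J, 1 higher and none lower in BALB/c minus C57BL/6J, and 1 higher and 1 lower in A/J minus BALB/c, with median changes of -0.07, 0.11 and -0.10. Glo1, glyoxalase I, which uses glutathione to detoxify methylglyoxal, was at 125.55, 161.60 and 93.61 RPKM across the A/J libraries, 38.14, 40.13 and 49.00 in those of BALB/c and 39.68, 41.27 and 26.45 in those of C57BL/6J. A/J lay far above the other strains, which overlapped. Glo1 was higher in A/J than in C57BL/6J (1.91, SE 0.27, adjusted p = 0.0052) and than in BALB/c (1.48, SE 0.27, adjusted p = 0.022). The first call was kept in every omission of 1 library, the second was lost when any 1 BALB/c library, A/J 1 or A/J 2 was left out (up to 0.12), and with A/J 3 as the only A/J library they were at 0.16 and 0.43.

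Mgst3, a membrane-bound transferase outside the symbol rule, was at 41.0 ± 0.737 RPKM for A/J, 65.0 ± 3.05 for BALB/c and 46.5 ± 5.16 for C57BL/6J, highest in BALB/c as were the pi-class genes. It was higher in BALB/c than in C57BL/6J (0.66, SE 0.12, adjusted p = 0.016) and lower in A/J than BALB/c (-0.73, SE 0.12, adjusted p = 0.012). The first call was lost when C57BL/6J 2 or any 1 BALB/c library was left out (up to 0.13) and with the values as deposited (0.073), and the second when any 1 BALB/c library, A/J 1 or A/J 2 was left out (up to 0.11). Anpep, an aminopeptidase that cleaves the dipeptide left from glutathione, was lower in A/J than in C57BL/6J (4.52 ± 0.576 against 7.76 ± 0.638 RPKM, log2 change -0.62, SE 0.13, adjusted p = 0.043). That call was lost in every omission of 1 library except that of A/J 3 (up to 0.15), with quantile normalization (0.088) and in a fit of only those 2 strains (0.27).

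None of 23 thioredoxin and peroxide partners and none of 31 Nrf2 regulators and further Nrf2 targets was called in any comparison by limma. In A/J minus C57BL/6J, then BALB/c minus C57BL/6J and then A/J minus BALB/c, 1, 6 and 1 of the former and 6, 3 and 5 of the latter had an unadjusted p under 0.05, beside 17.5%, 13.8% and 20.9% of all genes. Park7 (DJ-1), the most abundant of the former, was at 269 ± 5.11, 274 ± 9.20 and 255 ± 20.3 RPKM, and Fth1, the ferritin heavy chain and the most abundant of the latter, at 802 ± 107, 873 ± 6.53 and 910 ± 82.7 RPKM. The median changes of the Nrf2 list were -0.03, 0.07 and -0.21 in that order of comparisons, and those of the thioredoxin list were 0.17, 0.19 and 0.04.

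Of 25 metal-handling genes, 1 was called lower in A/J minus C57BL/6J, 2 higher in BALB/c minus C57BL/6J and 2 lower in A/J minus BALB/c. Atox1, the copper chaperone, was at 57.72, 55.32 and 53.96 RPKM across the A/J libraries, 99.54, 104.18 and 111.08 in those of BALB/c and 78.65, 70.67 and 68.42 in those of C57BL/6J. Its strains stood in the order seen for Mt2 and did not overlap. Atox1 was lower in A/J than BALB/c (-0.98, SE 0.13, adjusted p = 0.0052) and higher in BALB/c than in C57BL/6J (0.71, SE 0.13, adjusted p = 0.020). Both calls were lost with a correction for GC content (0.24 and 0.19) and without BALB/c 3, and the second also without BALB/c 1, BALB/c 2 or C57BL/6J 2. The zinc importer Slc39a1 was at 6.61 ± 1.04, 16.6 ± 1.02 and 9.16 ± 3.51 RPKM, higher in BALB/c than in C57BL/6J (1.06, adjusted p = 0.024) and lower in A/J than BALB/c (-1.35, adjusted p = 0.0087). The first call was lost when C57BL/6J 1, C57BL/6J 2 or any 1 BALB/c library was left out (up to 0.13) and with the values as deposited (0.094), and the second when A/J 1, BALB/c 2 or BALB/c 3 was (up to 0.063). The zinc importer Slc39a4 was lower in A/J than in C57BL/6J (4.11 ± 0.546 against 9.40 ± 3.42 RPKM, -0.95, adjusted p = 0.037). Its call was lost when any 1 BALB/c library, C57BL/6J 1, A/J 1 or A/J 2 was left out (up to 0.16), with a GC correction (0.087) and in a fit of only those 2 strains (0.17).

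Among 14 selenoprotein genes, the family to which Gpx1, Gpx3, Gpx4 and the thioredoxin reductases also belong by their selenocysteine, 1 was called. Sepp1, the plasma selenium carrier, was at 117.62, 123.06 and 71.34 RPKM across the A/J libraries, 70.92, 65.59 and 72.00 in those of BALB/c and 170.55, 145.93 and 299.77 in those of C57BL/6J. Like Gpx3, its C57BL/6J libraries were the highest, with C57BL/6J 3 at the top, but its lowest strain was not the same. Sepp1 was lower in BALB/c than in C57BL/6J (-1.31, SE 0.27, adjusted p = 0.034), but not when any 1 BALB/c library, C57BL/6J 1, C57BL/6J 3 or A/J 1 was left out (up to 0.15). Of 13 NADPH oxidase and superoxide source genes, only the dual oxidase maturation factor Duoxa1 was called, higher in BALB/c than in C57BL/6J (3.78 ± 0.186 against 1.64 ± 0.743 RPKM, 1.20, SE 0.25, adjusted p = 0.034). That call was lost when any 1 BALB/c library, C57BL/6J 1, C57BL/6J 2 or A/J 2 was left out (up to 0.17) and with the values as deposited (0.081).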

How the data were processed

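Poly(A) RNA of whole eyes was sequenced in 9 libraries, 3 per strain. CASAVA 1.7, GenomeStudio and build mm9 are named, per the submitters' processing notes. How reads were counted is not given in the sources used here. No unit is in the headers, and the values that the authors deposited were treated as RPKM, since their length-weighted sums come near the total that RPKM implies. Whole reads could not be recovered (at most 33.3% of low values lay within 0.1 of a whole number), so depth is unknown.

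The deposited RPKM were scaled by size factors (median of ratios), 0.5 was added and log2 taken. Genes with 1 RPKM in at least 3 libraries (12920) were fitted with limma 3.58.1 in R 4.3.3 (trended, robust, strain the only term, all 9 libraries), two-sided, with Benjamini-Hochberg adjustment over all genes; every adjusted p printed is from limma. The script was tested on simulated data. The alternatives were other pseudocounts, filters, scalings and priors, a GC correction, a replicate block, only 2 strains, and omitted libraries.

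Members, marker lists and pathway lists were chosen with earlier results of these data known. Called members were named with all values. Uncalled ones were named where most abundant in their family, where a strain's libraries stood apart, or for their known role; further uncalled members (among them Gpx4, Hmox2, Gsta1, Gsta4, Gstm6, Prdx1 and Mt3) were named after their values were seen. From each pathway list up to 4 called genes were named, otherwise the most abundant. Sequences shared between genes were counted as 31-base words in GENCODE transcripts of GRCm38, and promoter windows came from RefSeq GRCm38.p6. A window was found for 43 of 51 members. Neither is the files' build.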

Additional observations from a re-analysis of the deposited data

How the results depend on the processing

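Of 15 called results for single members, 4 held under all 21 settings, 6 in every omission of 1 library, and 0 reversed. The numbers of members called were 3 in A/J minus C57BL/6J, 7 in BALB/c minus C57BL/6J, 5 in A/J minus BALB/c and 7 by the F test. With 1 library left out at a time they ranged from 2 to 9, 2 to 7, 2 to 11 and 5 to 15, and the counts over all genes (348, 399, 320 and 578) from 153 to 3630, 149 to 630, 79 to 4463 and 265 to 4232. Without A/J 3 and C57BL/6J 3 the members called were 15, 16, 24 and 29, and all genes 5043, 1877, 7700 and 7883. Without A/J 1 and A/J 2, where the lone A/J library is assumed to vary like the other groups, 1 member was called in A/J minus BALB/c and 4 by the F test, and of all genes 126 in A/J minus C57BL/6J, 69 in A/J minus BALB/c and 321 by the F test. With only the 2 strains compared, 1 member was called in A/J minus C57BL/6J (138 of all genes) and 4 in BALB/c minus C57BL/6J, while A/J minus BALB/c rose to 7 members (427 of all genes), Mt1 and Gpx4 being added. The GC correction gave 6 members in A/J minus C57BL/6J, Gsr, Gstm6 and Gstz1 being added. The cause of these shifts was not tested. Values as deposited moved the median log2 change of all genes to -0.11, -0.17 and 0.05.

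The replicate numbers do not pair the libraries: correlations of same-numbered libraries ran from -0.51 to 0.54. With a replicate block, 4, 6, 5 and 7 members and 406, 398, 373 and 604 genes were called, and of the called members Mt2 in BALB/c minus C57BL/6J alone was lost (adjusted p = 0.061), as were the calls of Anpep (0.05), Sepp1 (0.059) and Duoxa1 (0.057) outside the rule. With A/J 3 as the only A/J library, Anpep (0.079), Mgst3 (0.19), Slc39a4 (0.28), Atox1 (0.089) and Slc39a1 (0.25) also lost calls that involve A/J. Depth is unknown, so counting error could not be given for low genes such as Gstp2.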
